A study of Mus musculus with 24 samples.

Results

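Among 61252 H3K4me1 peaks of untreated mouse macrophages carrying a scrambled hairpin, 4070 (6.64%) were enhancer-like regions outside marked promoters and transcribed units at which no total RNA polymerase II (Pol II) peak had been called in the control cells. They were chosen from the deposited peak lists in successive steps, with overlap meaning at least 1 bp shared. Of the 61252 peaks, 30935 overlapped an H3K27ac peak of untreated empty vector (LMP) cells and 22905 overlapped one in both LMP lists, untreated and LPS. Of these, 9502 lay 2500 bp or more from an H3K4me3 peak of any list, 6463 also overlapped no H3K36me3 peak of any list, and 5910 also overlapped no untreated LMP H3K27ac peak of 10 kb or wider. The 5910 regions are called extragenic-like enhancers here. The 4070 (68.9% of them) overlapped no total Pol II peak of the untreated or the LPS scrambled list. The other 1840 overlapped one, 777 in the untreated list alone, 592 in the LPS list alone and 471 in both. The name extragenic-like rests on the marks alone, since gene positions on the build of these lists (mm9) were not used here.

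The cells were bone marrow-derived macrophages of FVB/Hsd mice at day 7 of differentiation, infected with retrovirus and selected with puromycin. The groups were a short hairpin against Wdr82 (shWdr82, a single hairpin by its name in the titles) and a control vector, each untreated (UT) or stimulated with 10 ng/ml of lipopolysaccharide (LPS), an activator of macrophages from the outer membrane of bacteria. The control vector was LMP for H3K27ac and H3K4me3, and a scrambled hairpin for H3K4me1, H3K36me3, total Pol II and Ser2P, which is Pol II whose C-terminal domain carries phosphate on serine 2. The titles give 4 h of LPS for H3K27ac and H3K4me3 and 45 min for the other antibodies, while the protocol speaks of 4 h alone. The 24 peak lists come from 1 library in each group. No difference therefore has a replicate check and no test was run. Intervals in parentheses are 95% intervals that cover counting error over regions only. The lists held 14420 to 65149 peaks, read depth is unknown, and the depletion of WDR82 cannot be checked in peak lists.

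Enhancers are regulatory sequences at which transcription factors gather and act on promoters at a distance. H3K4me1 marks them whether active or poised, H3K27ac marks those in an active state, and Pol II often starts short non-coding transcripts from active ones. Ser2P is the form of Pol II in productive elongation, H3K36me3 is laid down over transcribed gene bodies, and H3K4me3 marks promoters. WDR82 belongs to SET1 histone methyltransferases and to a complex of the phosphatase regulator PNUTS that is linked to transcription termination, and the series title speaks of early termination that restrains transcription of cis-regulatory elements. The question here is what the other lists show at enhancers that lacked a Pol II peak in control cells.

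The enhancers without total Pol II were narrower, had lower scores and lay farther from marked transcription units than those with it. The median H3K4me1 peak width was 2560 bp, against 3368.5 bp at the 1840 enhancers with total Pol II. Each peak carries a score that the authors' peak caller gave it, from 50 to a ceiling near 3100. The median H3K4me1 score was 359, with the middle 50% from 171 to 706, against a median of 623 at those with total Pol II. The median H3K27ac score in untreated LMP cells was 507 against 2162. Median distances were 27997 bp to H3K4me3, 33771 bp to H3K36me3 and 57185 bp to a scrambled Ser2P peak. At the enhancers with total Pol II they were 21025.5 bp, 18708.5 bp and 34986 bp. Signal under a caller's threshold leaves no peak, so a region missing from a list may still hold some. The ranges overlapped widely, and 465 of the 4070 regions without total Pol II (11.4%) had an H3K27ac score of 3100 or more in untreated LMP cells. All of these values are descriptions, since the choice used the same lists or ones tied to them.

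**Figure D1:**
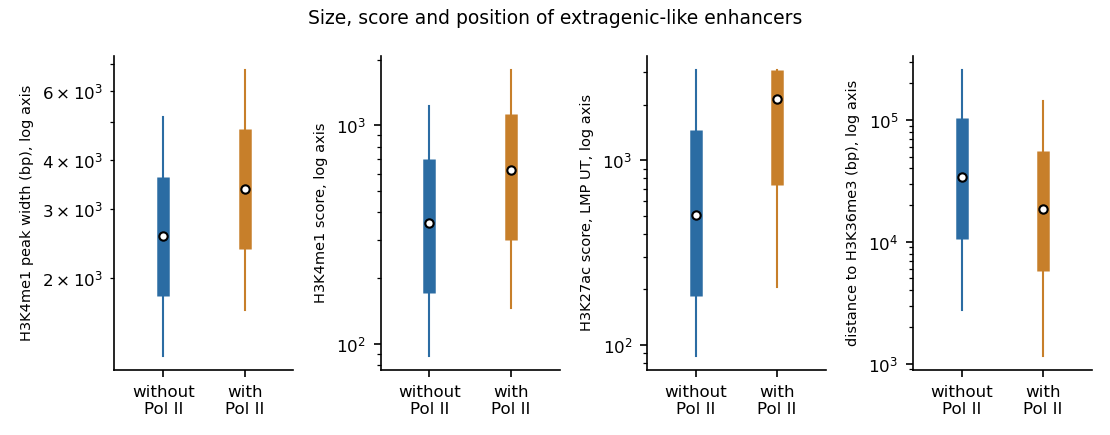
Width and score of the H3K4me1 peak, H3K27ac score in untreated LMP cells and distance to the nearest H3K36me3 peak (log axes) for 4070 extragenic-like enhancers without and 1840 with total Pol II. White points are medians, thick bars the middle 50% and thin lines the 10th to 90th percentile of regions; the median H3K27ac score is 507 without and 2162 with total Pol II.

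The nearest total Pol II peak of the scrambled lists was a median of 19754 bp away. Of the 4070 regions, 204 lay under 1000 bp from one, 789 under 5000 bp and 1340 (32.9%) under 10000 bp. The region just inside the rule, chr17:34037066-34038690 (mm9, positions counted from 1 throughout), touched a total Pol II peak with 0 bp between them, and the region just outside it, chrX:165562086-165562904, shared 3 bp with a peak of score 69. At the distance threshold, chr5:115952472-115953881 lay 2500 bp from H3K4me3 and was kept, and chr8:97299319-97304049 lay 2491 bp away and was not. At the width threshold, chr8:89417917-89419135 sat in an H3K27ac peak of 9957 bp and was kept, and chr3:15277468-15279248 sat in one of 10022 bp and was not.

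The regions were spread over all 20 chromosomes. They made up 5.06% of the H3K4me1 peaks of chromosome 11, the lowest share, and 9.96% of those of chromosome X, the highest. They fell in 4053 H3K27ac peaks of untreated LMP cells, of which 217 held 2 of the regions and 15 held 3 or more. Such neighbours share an acetylated stretch and are not independent. The 3 stretches with most regions, 4 each, were chr5:104805469-104814835 (H3K27ac score 3100), chr8:10830170-10833814 (score 221) and chr17:17735392-17740396 (score 3100). At 125 of the 4070 regions the same H3K27ac peak also held an extragenic-like enhancer with total Pol II.

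Elongating Pol II was called at few of these enhancers, and at most of them in no list. A Ser2P peak overlapped 45 regions (1.11%, 0.808 to 1.48) in scrambled UT, 61 (1.50%, 1.15 to 1.92) in scrambled LPS, 74 (1.82%, 1.43 to 2.28) in shWdr82 UT and 215 (5.28%, 4.62 to 6.01) in shWdr82 LPS. The shWdr82 LPS list stood above the other 3 lists, whose shares lay within 1 percentage point of each other. At the 1840 enhancers with total Pol II Ser2P was called at 6.25% and 8.91% in scrambled UT and LPS and at 6.79% and 16.1% in shWdr82 UT and LPS. Over all 61252 H3K4me1 peaks, inside and outside transcribed units, the 4 lists gave 7.70%, 7.57%, 7.14% and 9.50%. The difference between the sets of enhancers in scrambled UT was -5.14 percentage points (-6.30 to -3.99). Both this difference and the low scrambled shares come from regions chosen for lacking total Pol II in the same scrambled cells.

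**Figure D2:**
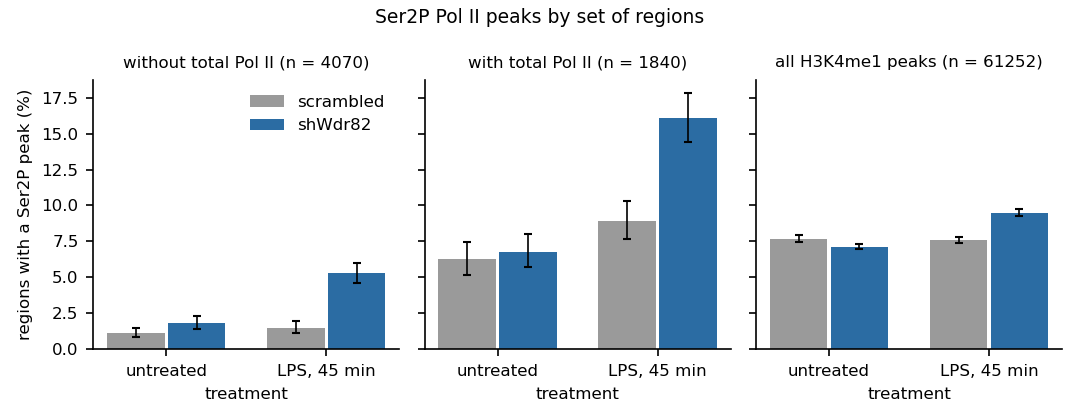
Share of regions with a Ser2P Pol II peak (vertical axis, %) in untreated cells and after 45 min of LPS, in scrambled (grey) and shWdr82 (blue) lists, for 3 sets of regions; bars are 1 library each and lines are 95% binomial intervals. In the set without total Pol II the shWdr82 LPS share is 5.28% and the other 3 are at or below 1.82%.

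After LPS, Ser2P was called at more of the enhancers without total Pol II in shWdr82 than in scrambled cells. The difference was 3.78 percentage points (3.14 to 4.43), positive on 20 of 20 chromosomes, as it also was over all H3K4me1 peaks. It came from 170 regions (4.18%, 3.58 to 4.84) with Ser2P in the shWdr82 LPS list alone and 16 (0.393%, 0.225 to 0.638) with it in the scrambled LPS list alone. Over all 61252 H3K4me1 peaks these shares were 3.77% and 1.84%. The share with Ser2P in shWdr82 alone was thus near that of all H3K4me1 peaks, with an interval that holds it, and the share in the other direction was lower. The regions were chosen for lacking total Pol II in the same scrambled cells, so a low scrambled share is favoured by the choice. The difference was 1.93 points (1.74 to 2.11) over all H3K4me1 peaks, 7.17 points (5.83 to 8.52) at the enhancers with total Pol II and 4.84 points (4.23 to 5.45) at all 5910 extragenic-like enhancers.

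The difference was smaller where the total Pol II rule that chose the regions was changed, and among the highest-scoring peaks. At 4024 regions chosen by the same rule from the total Pol II lists of shWdr82 cells it was 2.58 points (2.04 to 3.13), and at the 3667 regions with total Pol II in none of the 4 lists 2.48 points (1.92 to 3.04). At regions 5000 bp or more from scrambled total Pol II it was 2.86 points (2.24 to 3.49). Other choices of regions left it near the main value. It was 3.84 points (3.16 to 4.51) at 5000 bp or more from H3K4me3. With 1 region for each H3K27ac peak it was 3.86 points (3.19 to 4.54). The shWdr82 LPS list of Ser2P covered 60.6 Mb and the scrambled LPS list 44.7 Mb. With each list cut to its top-scoring peaks of the same covered length, which also changes the number of peaks and the lowest score, the difference was 1.60 points (1.09 to 2.10). With each peak narrowed to that covered length instead, it was 3.24 points (2.62 to 3.86). The part of library depth was not tested.

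In untreated cells the difference was small, at 0.713 points (0.291 to 1.13). It came from 53 regions (1.30%) with Ser2P in shWdr82 UT alone, against 1.80% of all H3K4me1 peaks, and 24 (0.590%) with it in scrambled UT alone, against 2.36%. It was positive on 15 chromosomes and negative on 1. Over all H3K4me1 peaks the difference had the opposite sign, -0.557 points (-0.718 to -0.395). At the regions chosen by the shWdr82 total Pol II lists it was 0.373 points (-0.0258 to 0.771), and at regions 5000 bp or more from scrambled total Pol II 0.183 points (-0.165 to 0.531). The last 2 intervals include 0.

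The response to LPS itself was larger in the shWdr82 lists, whose difference from scrambled was not tested. LPS minus untreated was 3.46 points (2.75 to 4.18) in shWdr82 and 0.393 points (-0.0481 to 0.834) in scrambled cells. Over all H3K4me1 peaks these differences were 2.36 and -0.124 points, and at the enhancers with total Pol II 9.29 and 2.66 points. The larger value thus lay in shWdr82 in all 3 sets. Of the 4070 regions, 3780 (92.9%) had Ser2P in none of the 4 lists, 151 in shWdr82 LPS alone, 32 in shWdr82 UT alone, 18 in scrambled UT alone and 14 in scrambled LPS alone. Both LPS lists and no other held it at 27 regions, and all 4 lists at 10. Both shWdr82 lists and no scrambled list held it at 12 regions, and the reverse pattern occurred at 0. The regions were chosen for lacking total Pol II in scrambled and not in shWdr82 cells, so these counts are not on equal terms. The same patterns were not counted over all H3K4me1 peaks.

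The median Ser2P peak at these enhancers was wider than that of its whole list in 3 of the 4 lists. A wide peak also meets a region more readily than a narrow one. In the shWdr82 LPS list, 210 Ser2P peaks lay on the regions, with a median width of 5444 bp against 2496 bp over the whole list. Of the 210, 14.3% also touched H3K36me3 somewhere along their length, against 52.0% of the list, and the choice of regions outside H3K36me3 lowers the first share by construction. Of the 210, 72 overlapped a Ser2P peak of the scrambled LPS list. Only 105 of the 210 had their centre inside a region, so the rest reached it from a centre outside. The median widths were 2281.5 bp in shWdr82 UT against 1550 bp over the list, 2767 bp in scrambled LPS against 1812 bp, and 1782 bp in scrambled UT against 1921 bp. Of the 63 peaks at the regions in scrambled LPS, 47 overlapped a Ser2P peak of shWdr82 LPS. The 170 regions with Ser2P in shWdr82 LPS but not scrambled LPS lay a median of 18772 bp from the nearest scrambled LPS Ser2P peak. Of them, 52 were under 5000 bp away and 47 were 50000 bp away or more.

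The Ser2P share was lowest far from marked transcription units. In shWdr82 LPS it was 7.43% at the 606 regions under 5 kb from H3K36me3, 9.56% from 5 to 10 kb, 8.18% from 10 to 25 kb, 5.70% from 25 to 50 kb, 3.52% from 50 to 100 kb and 1.14% (0.590 to 1.98) at the 1053 regions at 100 kb or more. In scrambled LPS the shares were 3.14%, 3.83%, 1.79%, 0.900%, 1.01% and 0.190%. The shWdr82 share was the higher one in each of the 6 distance classes. The intervals of the LPS lists overlapped in the farthest class and in no other. In shWdr82 UT the share was 6.60% under 5 kb and 3.83% from 5 to 10 kb, and below 0.5% in every class beyond 25 kb, so the untreated Ser2P peaks lay close to H3K36me3. Regions near H3K36me3 were only slightly wider, with a median of 2748.5 bp under 5 kb and 2387 bp at 100 kb or more. Shares by distance were not counted in other sets of regions, so the order is not shown to be particular to these.

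**Figure D3:**
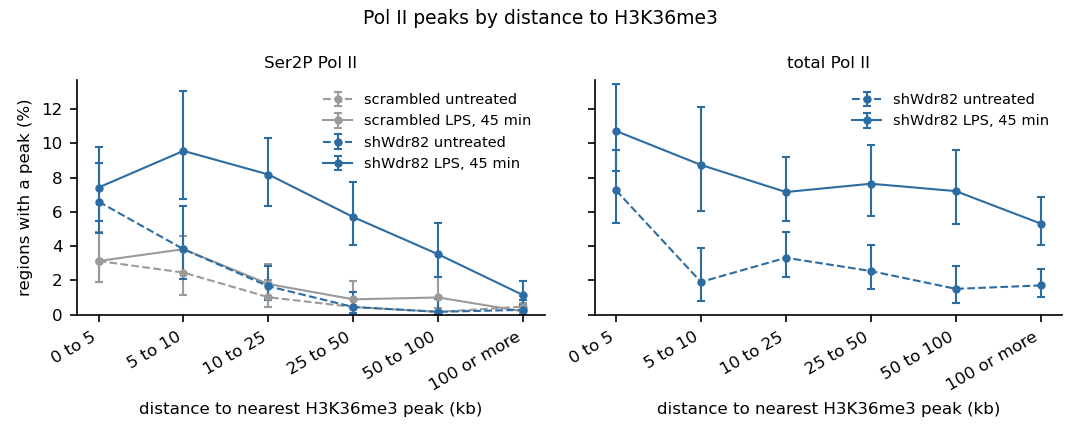
Share of enhancers without total Pol II that carry a Ser2P (left) or total Pol II (right) peak, by distance to the nearest H3K36me3 peak in kb, with 95% binomial intervals; each line is 1 library, grey for scrambled and blue for shWdr82, dashed for untreated and solid for LPS. The Ser2P share in shWdr82 LPS is 9.56% at 5 to 10 kb and 1.14% at 100 kb or more, and total Pol II in shWdr82 LPS is between 5.32% and 10.7% throughout.

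Total Pol II itself appeared at some of the regions in the shWdr82 lists, more of them after LPS. It was called at 121 regions (2.97%, 2.47 to 3.54) in shWdr82 UT and at 303 (7.44%, 6.66 to 8.29) in shWdr82 LPS. Among the 38266 H3K4me1 peaks that lacked total Pol II in both scrambled lists, the shares were 3.65% and 4.40%. The untreated share was thus slightly below that background and the LPS share above it. LPS minus untreated was 4.47 points (3.54 to 5.40), higher on 18 chromosomes and lower on 0. Over the 38266 H3K4me1 peaks chosen in the same way for lacking scrambled total Pol II, it was 0.745 points (0.487 to 1.00). Over all H3K4me1 peaks, with no such choice, it was -3.83 points (-4.16 to -3.50). Total Pol II was in both shWdr82 lists at 21 regions, in LPS alone at 282 (6.93%) and in UT alone at 100 (2.46%). Among the 38266 H3K4me1 peaks it was in LPS alone at 1412 and in UT alone at 1127.

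Since the regions were chosen for lacking total Pol II in scrambled cells, any total Pol II in shWdr82 is a gain by construction, and the choice was therefore also made the other way round. At the 4024 extragenic-like enhancers without total Pol II in the shWdr82 lists, scrambled cells had it at 266 (6.61%, 5.86 to 7.42) in UT and at 120 (2.98%, 2.48 to 3.56) in LPS. In untreated cells the share gained in shWdr82 was thus below the share gained in the reverse choice, the difference being -3.64 points (-4.57 to -2.71). After LPS the order was the opposite, and the difference 4.46 points (3.50 to 5.43). Over all 61252 H3K4me1 peaks, total Pol II was called at 32.5% in scrambled UT and 30.4% in shWdr82 UT. After LPS these shares were 25.6% and 26.6%. At all 5910 extragenic-like enhancers they were 21.1% and 18.0% in UT and 18.0% and 21.2% after LPS. The order thus also reversed over all H3K4me1 peaks and was not particular to these enhancers. The scrambled UT list was the longest of the total Pol II lists, with 32385 peaks against 28497 in shWdr82 UT. The LPS lists were close, with 21891 and 22307 peaks. Of the 4070 and 4024 regions, 3667 were the same, and these had no total Pol II in any of the 4 lists. The intervals of the differences treat the choices as separate regions, so they do not give the counting error exactly.

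**Figure D4:**
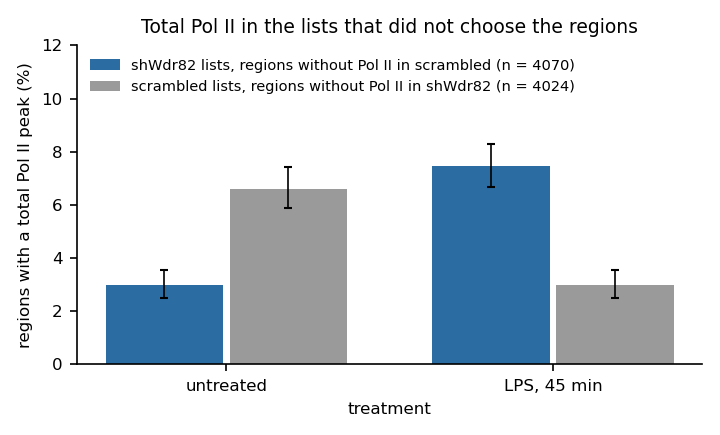
Share of regions with a total Pol II peak (%, with 95% binomial intervals, 1 library a bar) in the lists that did not choose them, untreated and after 45 min of LPS. Blue bars are shWdr82 lists at 4070 regions without total Pol II in scrambled cells, and grey bars are scrambled lists at 4024 regions without it in shWdr82 cells; blue is lower in untreated cells (2.97% and 6.61%) and higher after LPS (7.44% and 2.98%).

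The total Pol II peaks found in shWdr82 had low scores. Their median score was 75.4 at the 121 regions in UT and 127 at the 303 regions in LPS. At the enhancers with total Pol II the medians in the same 2 lists were 149 and 368. With peaks of score 100 or more alone, the shares were 1.01% in UT and 4.28% in LPS. With the lists cut to the same number of top-scoring peaks they were 1.30% and 7.35%, and with 50% or more of a region covered 1.20% and 5.45%. The LPS share stayed above the untreated share under each of these settings. The peaks were also near the control ones in part: at regions 5000 bp or more from scrambled total Pol II the shares were 2.07% and 5.64%.

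Total Pol II in shWdr82 LPS was also found far from H3K36me3. The share was 10.7% under 5 kb, between 7.16% and 8.74% in the 4 classes from 5 to 100 kb, and 5.32% at 100 kb or more. It was 6.39% (4.96 to 8.07) at the 25% of regions with the lowest untreated LMP H3K27ac score and 9.23% (7.53 to 11.2) at the 25% with the highest, with overlapping intervals. In shWdr82 UT it was 1.08% (0.541 to 1.93) and 6.09% (4.70 to 7.74) at the same regions, and the intervals were apart. Ser2P in shWdr82 LPS did not follow this order, with 5.30%, 6.59%, 5.31% and 3.93% in the 4 equal groups of regions from the lowest to the highest score. Neither the shares by distance nor those by score were counted in other sets of regions.

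Pol II in shWdr82 LPS was compared with the LPS response of the acetylation. Total Pol II in shWdr82 LPS lay at 8.61% (7.08 to 10.3) of the 1196 regions whose LMP H3K27ac score was at least 2 times higher after LPS, at 8.41% of the 1320 in between, and at 5.73% (4.62 to 7.00) of the 1554 whose score was at least 2 times lower. Ser2P in shWdr82 LPS lay at 6.44% (5.11 to 7.98), 4.77% and 4.83% of them. These shares were not counted over all H3K4me1 peaks.

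Total and elongating Pol II coincided at part of the regions. Their overlap was not counted in other sets of regions, so it is not shown to be particular to these. In shWdr82 LPS, 86 of the 303 regions with total Pol II also had Ser2P (28.4%, 23.4 to 33.8), against 129 of the 3767 without (3.42%, 2.87 to 4.06). In shWdr82 UT it was 16 of 121 (13.2%, 7.75 to 20.6) against 58 of 3949 (1.47%, 1.12 to 1.89). Even so, 129 of the 215 regions with Ser2P in shWdr82 LPS had no total Pol II peak in that treatment and vector.

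A few regions carried these patterns most clearly. Those named had the highest ranks when each was ordered by the weaker of its 2 peaks. The region chr3:10021960-10024178, which is 2219 bp wide and 1869 bp from H3K36me3, had total Pol II and Ser2P in both shWdr82 lists and in no scrambled list. Its total Pol II scores were 334 in UT and 538 in LPS, and its Ser2P scores 768 and 2065. H3K27ac there was near the ceiling in all 4 lists (3025 to 3100), while its H3K4me1 scores were only 57.2 and 140 in scrambled UT and LPS and 91.8 and 279 in shWdr82. At chr1:173139321-173142846, 4002 bp from H3K36me3, Ser2P scored 1119 in shWdr82 UT and 3100 in shWdr82 LPS with no total Pol II peak in any list. Its H3K27ac scores were lower after LPS with either vector, 410 and 82.5 in LMP and 473 and 111 in shWdr82. At chr14:34013768-34019429, 10619 bp from H3K36me3, the shWdr82 lists held Ser2P at 807 and 681 and total Pol II at 129 and 153. All 3 had Ser2P in shWdr82 cells before and after LPS and in neither scrambled list.

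Other regions with total Pol II in both shWdr82 lists had no such contrast in Ser2P. At chr17:10518353-10522057, total Pol II scored 1217 in shWdr82 UT and 1490 in shWdr82 LPS, the highest pair. Ser2P was present there in all 4 lists, at 112 and 173 in scrambled UT and LPS and at 856 and 411 in shWdr82. At chr1:195222784-195228688, 195662 bp from H3K36me3, total Pol II scored 200 and 401 in shWdr82 and no list held Ser2P. Its H3K27ac scores were 3100 and 945 in LMP UT and LPS and 3100 and 556 in shWdr82.

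Some of the most acetylated regions had no Pol II peak in any list. At chr16:32399377-32404298, with H3K27ac at 3100 to 3194 in all 4 lists and H3K4me1 from 1471 to 2347, no total Pol II or Ser2P peak was called in any list. At chr6:17559250-17563983, the region with the highest pair of LMP scores, H3K27ac was 3230 and 3100 in LMP UT and LPS and 1972 and 3100 in shWdr82, again with no Pol II peak. The region farthest from total Pol II of any list, chrX:114882422-114885661, lay 3094790 bp from the nearest one. It had a Ser2P peak of score 52.8 in scrambled UT, just above the lowest score listed. Its H3K27ac score was 1206 in LMP UT and 350 in LMP LPS.

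The enhancer marks were largely kept in shWdr82 cells. An H3K27ac peak was called at 3757 of the 4070 regions (92.3%, 91.4 to 93.1) in shWdr82 UT and at 3534 (86.8%, 85.8 to 87.9) in shWdr82 LPS. Of the 22905 H3K4me1 peaks with H3K27ac in both LMP lists, 97.0% and 93.6% had one. At the enhancers with total Pol II the shares were 98.1% and 94.5%. H3K27ac was thus kept at a smaller share of the regions here than in either set. The peaks missing in untreated cells lay mostly at low untreated LMP scores, and those missing after LPS followed that untreated score less. In the same 4 groups by untreated LMP score, 73.0%, 97.2%, 99.3% and 99.7% of the regions had H3K27ac in shWdr82 UT, and 81.4%, 83.4%, 87.2% and 95.3% in shWdr82 LPS. Groups by the LMP score after LPS were not made. The 456 regions with H3K27ac in shWdr82 UT alone had a low median LMP score after LPS, 85.8. When the whole rule was drawn on the shWdr82 lists, 92.7% (91.8 to 93.5) of 3832 regions had H3K27ac in LMP UT and 89.6% (88.6 to 90.6) in LMP LPS. In untreated cells the share without H3K27ac was thus of similar size whichever vector chose the regions.

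Where H3K27ac was in 1 shWdr82 list alone, the control score was mostly higher in the same treatment. H3K27ac was in both shWdr82 lists at 3301 regions, in UT alone at 456, in LPS alone at 233 and in neither at 80. Of the 456 regions, 400 had a lower score after LPS in LMP, with a median score of 375 in LMP UT and 85.8 in LMP LPS. Of the 233 regions, 211 had a higher score after LPS in LMP, with medians of 81.5 and 517. Over all H3K4me1 peaks with H3K27ac in both LMP lists these shares were 88.8% (86.9 to 90.5) of 1274 and 84.1% (80.7 to 87.2) of 511, against 87.7% (84.4 to 90.6) and 90.6% (86.1 to 94.0) at the regions here, so the pattern was general. In both groups the median control score in the treatment without a shWdr82 peak was near the lowest score listed.

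H3K27ac scores after LPS moved in both directions at these enhancers. A ratio of scores from separate lists describes the deposited scores, which also depend on each library's depth and enrichment. In shWdr82, 768 of the 3301 regions (23.3%, 21.8 to 24.7) had a score at least 2 times higher after LPS, against 12.2% of all H3K4me1 peaks with H3K27ac in both lists, and 1400 (42.4%) had one at least 2 times lower, against 41.3%. In LMP, 1196 of 4070 (29.4%, 28.0 to 30.8) were higher, against 15.6%, and 1554 (38.2%) lower, against 33.4%. The share higher after LPS was thus above the background with either vector, while the shares lower were closer to it. The choice used the LMP lists, and it left out H3K27ac peaks of 10 kb or wider in untreated cells but not after LPS. The background had no such limit, and its part in these shares was not tested. At the enhancers with total Pol II, 13.0% were higher in shWdr82 and 17.3% in LMP. Peaks at the score ceiling in untreated cells cannot score 2 times higher, and the enhancers with total Pol II and the background had higher untreated scores (medians of 2162 and 1497 in LMP, against 507), whose part in these shares was not tested. The median log2 ratio was -0.54 in shWdr82 and -0.24 in LMP, near the values of -0.62 and -0.23 for all H3K4me1 peaks.

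The direction was mostly shared between the vectors, as it was over all H3K4me1 peaks. Of the 3301 regions, 669 were at least 2 times higher in both LMP and shWdr82 (67.9% of those in LMP and 87.1% of those in shWdr82), and 1056 were at least 2 times lower in both (87.8% and 75.4%). Opposite calls were made at 55 regions, of which 51 were higher in LMP and lower in shWdr82 and 4 the other way round. Over the 20939 H3K4me1 peaks with H3K27ac in all 4 lists, the shared calls made up 64.3% and 84.7% of those higher in LMP and in shWdr82 and 89.4% and 70.7% of those lower. Opposite calls were made at 0.774% of these peaks and at 1.67% of the 3301 regions.

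**Figure D5:**
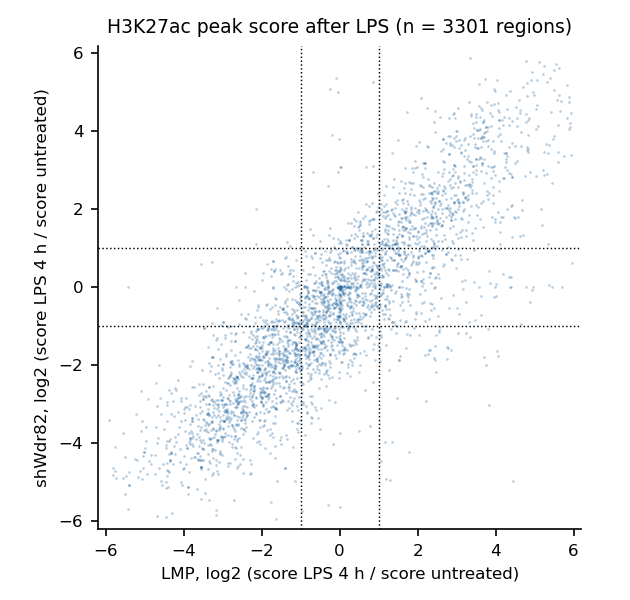
Log2 ratio of the H3K27ac peak score after 4 h of LPS to that in untreated cells, in LMP (horizontal) and shWdr82 (vertical), for the 3301 enhancers without total Pol II that have H3K27ac in all 4 lists; each point is a region and dotted lines mark a ratio of 2 in either direction. Most points run from lower left to upper right, with 669 higher in both, 1056 lower in both and 55 opposite.

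H3K4me1 was found at most regions in each of the other lists. It was called at 95.8% (95.2 to 96.4) of the regions in scrambled LPS, 91.6% (90.7 to 92.4) in shWdr82 UT and 91.5% (90.7 to 92.4) in shWdr82 LPS. Of all H3K4me1 peaks of scrambled UT, 87.9%, 80.3% and 81.8% were called there. All of the lists held it at 3492 regions (85.8%) and scrambled UT alone at 61. When the whole rule was drawn on the shWdr82 lists, 94.8% (94.0 to 95.5) of the regions had H3K4me1 in scrambled UT. In the score, 13.2% of 3900 regions were at least 2 times higher after LPS in scrambled cells (background 12.5%) and 5.82% at least 2 times lower (background 6.57%). In shWdr82 it was 15.1% of 3548 regions (background 13.1%) and 7.16% (background 6.49%). These shares lay close to the background, the farthest being 15.1% against 13.1%.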

How the data were processed

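ChIP-seq with 6 antibodies in control vector and shWdr82 cells, untreated or with LPS, was analysed from 24 deposited peak lists, 1 library each. The submitters' processing notes name Bowtie 0.12.7, MACS 1.4 and the mm9 build. Start and end positions and the score of each peak are the authors' deposited values, called list by list. The score is the authors' own, used as deposited, and neither read depth nor an input library was used. Peaks on the 20 chromosomes 1 to 19 and X were used.

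Overlaps (1 bp or more), distances, shares with exact Clopper-Pearson 95% intervals and paired share differences with 95% Wald intervals were computed with Python 3.11.15, numpy 2.4.6, pandas 2.3.3 and SciPy 1.17.1, and checked on simulated lists. Where several peaks overlapped a region, the highest score was taken. Differences between separate sets of regions have Wald intervals for independent shares. The same form was used between the regions chosen by scrambled and by shWdr82 total Pol II, although most of these are shared.

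The regions, and the lists compared, were chosen with earlier results of these data known. Regions named by position were taken by rank: highest paired LMP H3K27ac scores, total Pol II in both shWdr82 lists, Ser2P in both shWdr82 and neither scrambled list, distance from total Pol II, most regions in 1 H3K27ac peak, and nearest to each threshold. Alternatives changed the overlap, the score minimum, the list length, the distances and the vector that chose the regions. No sequence or gene name is given, since no mm9 genome or annotation was used here.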

Additional observations from a re-analysis of the deposited data

Results flagged for a closer look

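Total Pol II at extragenic-like enhancers differed between shWdr82 and scrambled cells in opposite directions in untreated and LPS cells. The same reversal was seen over all 61252 H3K4me1 peaks, so it was not particular to these enhancers. Over those peaks the scrambled and shWdr82 shares were 32.5% and 30.4% in untreated cells and 25.6% and 26.6% after LPS. The share gained in shWdr82 at regions chosen for lacking total Pol II in scrambled cells, minus the share gained in scrambled cells at regions chosen for lacking it in shWdr82, was -3.64 percentage points in untreated cells and 4.46 points after 45 min of LPS. With 1 library in each group, the difference between the treatments was not tested. The lists held 32385 (scrambled) and 28497 (shWdr82) peaks in untreated cells and 21891 and 22307 after LPS, and the part of list length in the result was not tested.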

How the results depend on the processing

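Of 96 recomputed values, 65 stayed within the interval of the main value or, for the number of regions, within 1.5 times of it, and 31 moved. No called difference changed sign. For total Pol II in shWdr82 UT (2.97%), the moved shares were 2.38% with 500 bp about the centre, 2.07% at 5000 bp or more from scrambled total Pol II, 1.20% with 50% of the region covered, 1.30% with the same number of peaks per list, 1.01% with scores of 100 or more and 6.61% in scrambled UT at the regions chosen by shWdr82. For shWdr82 LPS (7.44%) they were 6.58%, 5.64%, 5.45%, 4.28% (scores of 100 or more) and 2.98% (reverse choice). The Ser2P difference in LPS (3.78 points) was 2.86 at 5000 bp from total Pol II, 2.58 with the reverse choice, 2.48 without total Pol II in any of the 4 lists and 1.60 with top-scoring peaks of the same covered length. In UT (0.713 points) it was 0.183 at 5000 bp from total Pol II. H3K27ac in shWdr82 UT (92.3%) was 90.5% about the centre, 86.3% with 50% covered, 88.4% with equal numbers of peaks and 85.0% with scores of 100 or more. In shWdr82 LPS (86.8%) it was 83.5%, 78.2%, 75.2% (scores of 100 or more) and 89.6% with the whole rule on the shWdr82 lists. H3K4me1 in scrambled LPS (95.8%) was 95.1% with 50% covered, 95.1% with equal numbers and 89.2% with scores of 100 or more. In shWdr82 UT (91.6%) it was 90.0% with 50% covered, 80.2% with scores of 100 or more and 94.8% with the whole rule on the shWdr82 lists. The share with an H3K27ac score 2 times higher after LPS (23.3%) was 21.5% with equal numbers of peaks. Fewer or stricter peaks lower the share of regions with a peak by construction. This need not hold for the share with a higher score, which counts only regions with H3K27ac in both shWdr82 lists. For the other changes the cause was not tested. The settings by covered length, by none of the 4 total Pol II lists and by the whole rule on the shWdr82 lists were chosen after seeing the data. No paired analysis was possible because each group had 1 library and the labels carry no replicate numbers. Depth is unknown, so a region without a peak may hold signal below the threshold.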
